A study of Mus musculus with 7 samples.

Results

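The hairpins mmu-mir-374 and mmu-mir-421 lie side by side in introns of Ftx, a noncoding gene of the X chromosome, and the tags of both were followed here through the culture of HL-1 cells. They are 2 of the 1222 mouse hairpins searched and 2 of the 686 with at least 1 tag. All deposited tags were placed on the hairpins by their best match without gaps, with at most 2 mismatches, and 10618.5 tags on mir-374 and 8348 on mir-421 were counted among 41180989 in all. Counts are of tags, the sequences read from a library, and one that matched several miRNAs equally well was divided among them, which gives the fractions. HL-1 is a mouse cell line of immortalised atrial cardiomyocytes that still contracts. It is a single line, and the labels name no treatment or mutation: all libraries came from HL-1 cells, sampled as total RNA on day 1, day 2, day 3 or day 4 in culture. Days 1, 3 and 4 each had 2 libraries, 1 from each of 2 independent time courses, and day 2 had 1 library from time course 2, so that time course 2 held 4 libraries and time course 1 held 3. Cells were seeded sparsely and started to beat over these days, so day in culture, cell density and beating cannot be told apart. Library totals ran from 4945112 to 6899476 tags. The pair was selected on its tag counts by arm and day in these same libraries, so its levels by day describe these libraries, and the fitted values below are not independent evidence.

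A miRNA hairpin is cut by Drosha and Dicer into a duplex of 2 short arms, named 5p and 3p after their side of the hairpin, and one arm usually stays bound to an Argonaute protein while the other is degraded. The bound arm finds its messenger RNA targets mainly through its seed, bases 2 to 8, so that a shifted start gives another seed, whereas the 3′ end varies more freely. Ftx belongs to the X-inactivation centre and is known in mouse as a positive regulator of Xist, the RNA that coats the inactive X chromosome. Its introns also carry miRNA hairpins, and a primary transcript that holds several hairpins can give rise to all of them.

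In GRCm38 the mir-374 hairpin (Mir374b, for which RefSeq gives mmu-mir-374 as another name) spans 95 bases at chrX:103573060-103573154 on the minus strand. The mir-421 hairpin (Mir421) spans 76 bases at chrX:103572921-103572996 on the same strand, and 63 bases separate them. Ftx (ENSMUSG00000086370.9) was annotated from 103560907 to 103623790, also on the minus strand. Of its 12 transcripts 8 spanned each hairpin, and 0 exons overlapped either, so both are intronic. Xist lay on the same strand, with its 5′ end 77.7 kb from Ftx. Another annotated hairpin, mir-374c, lies on the opposite strand wholly within the mir-374 sequence (49 bases shared). The 5p arms of both read alike: miR-374c-5p is miR-374b-5p without its first 2 bases. RefSeq (GRCm38.p6) gives these mature sequences, with the seed in capitals, shown because their starts set which tags can be told apart:
mmu-miR-374b-5p: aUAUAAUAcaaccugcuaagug
mmu-miR-374c-5p: aUAAUACAaccugcuaagug
mmu-miR-374b-3p: gGUUGUAUuaucauuguccgag
mmu-miR-421-5p: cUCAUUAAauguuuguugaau
The 4 seeds all differ. The entry mmu-miR-421-3p is named only.

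The 5p arm was the main product of mir-374. It held 98.6% of the hairpin's tags over the summed libraries (95% Wilson interval 98.4 to 98.8), and 10471 tags placed it at rank 163 of 1164 arms with tags. Intervals given here cover counting error only. Levels are given as CPM, the tags of an arm per 1000000 tags of its library, and a pair of values for a day stands for time courses 1 and 2 while day 2 is from time course 2. CPM is a share of a library and not an amount per cell. miR-374-5p had 25.8 and 79.5 CPM on day 1, 426 on day 2, 424 and 297 on day 3, and 287 and 320 on day 4. The day 1 libraries thus lay below all 5 later ones, which did not overlap with them, and the library of time course 1 on day 1 was lowest. Within the time courses the level on day 4 was 4.03 times that on day 1 in time course 2 and 11.1 times in time course 1.

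**Figure D1:**
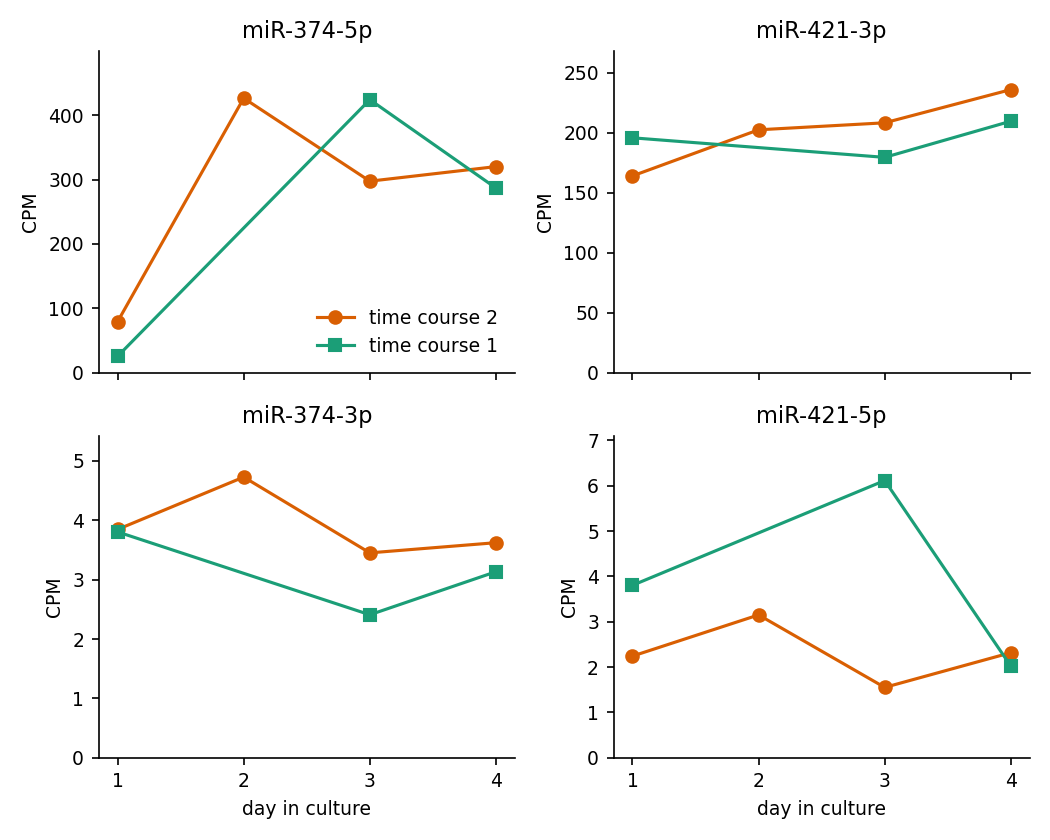
Level of each arm (CPM, linear axis from 0) against day in culture, with circles for time course 2 and squares for time course 1, joined within a time course (time course 1 had no day 2 library). miR-374-5p sits between 287 and 426 on the later days and at 25.8 and 79.5 on day 1, whereas miR-421-3p lies between 164 and 236 throughout and the other arms stay under 7.

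Day 4 was set against day 1 to ask which miRNAs moved as the cells passed to a beating state. With edgeR's quasi-likelihood test over 726 arms, miR-374-5p had a log2 fold change of 2.67 ± 0.569 (SE), with 2 libraries per day and a Benjamini-Hochberg adjusted p of 0.193. All 4 arms of both hairpins passed the filter on low counts. Of these, 0 passed the adjusted threshold of 0.05, as did 0% of the 726 arms, although 75 had an unadjusted edgeR p under that value. With the time course as a block, which the correlated deviations of the libraries warrant, the log2 fold change of miR-374-5p was 2.77 ± 0.456 and edgeR's adjusted p was 0.003, so that miR-374-5p rose in this fit. There 1.52% of the 726 arms were called higher (11 arms) and 1.24% lower (9 arms). DESeq2 called 1.06% of the 472 arms to which it gave an adjusted p higher and 1.69% lower, with miR-374-5p among the higher (log2 fold change 2.65, DESeq2 adjusted p = 0.000567). The call thus differed between the fits, while the level was higher on day 4 in 2 of 2 time courses. In edgeR's fit without the block, leaving out the day 1 library of time course 1 gave a log2 fold change of 2.00. Leaving out that of time course 2 gave 3.77.

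Among the 285 tested arms with at least 1000 tags, miR-374-5p had the highest log2 fold change in the fit without the block, ahead of 2.04 for miR-2137-3p, and over all 726 arms it ranked 4. The middle 80% of all 726 arms lay between -0.95 and 0.87. Its most frequent tag holds 31.8% G and C. The 46 other tested arms with at most that share had a median log2 fold change of 0.06 and ran from -2.15 to 1.88, against a median of 0.03 over all 726 arms. Any part of base content in the level of miR-374-5p was not tested.

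**Figure D2:**
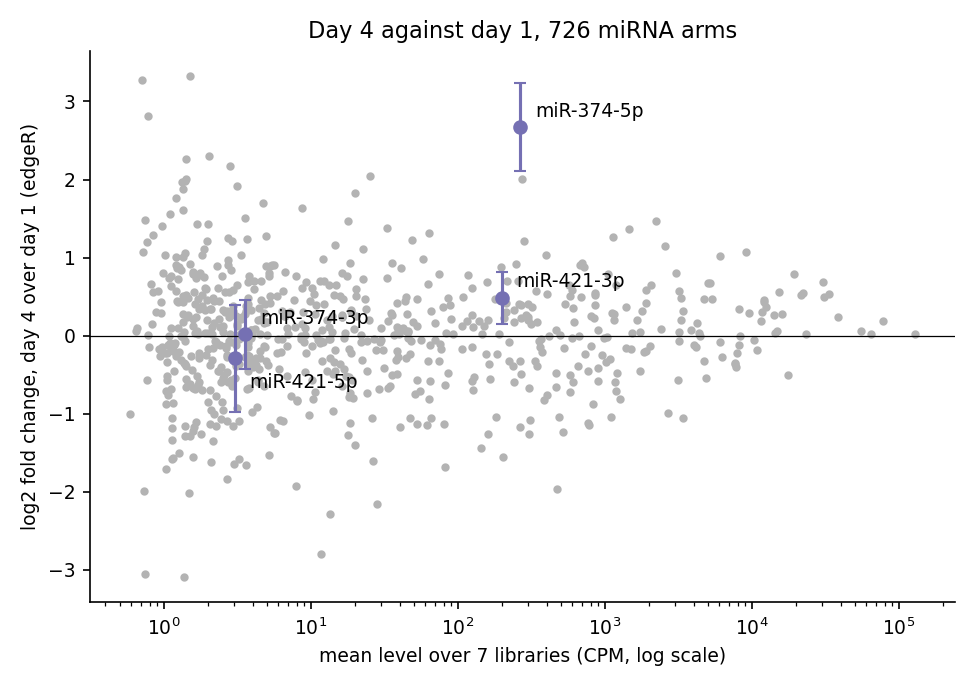
Log2 fold change of day 4 over day 1 from edgeR (vertical) against the mean level over 7 libraries in CPM (horizontal, log scale) for each tested miRNA arm in grey, with the 4 arms of mir-374 and mir-421 in purple and bars of 1 SE. miR-374-5p at 2.67 stands above arms of like abundance, miR-421-3p lies at 0.49, and the minor arms lie near 0.

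The 3p arm of the same hairpin showed no such difference. miR-374-3p is the minor strand, with 147.5 tags in all. It had 3.81 and 3.85 CPM on day 1, 4.73 on day 2, 2.41 and 3.45 on day 3, and 3.13 and 3.62 on day 4, and day 4 lay below day 1 in both time courses. Its log2 fold change for day 4 over day 1 was 0.02 ± 0.439 (edgeR's adjusted p = 0.996, and 0.996 with the block). The 15.5 to 26 tags behind each value of these days limit the precision. The ratio of 5p to 3p tags was 6.77 and 20.7 on day 1, 90.1 on day 2, 176 and 86.2 on day 3, and 91.5 and 88.3 on day 4. All later libraries lay above both day 1 libraries in this ratio. The difference between the arms was not tested.

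miR-421 came from the 3p arm of its hairpin. This arm held 98.5% of the hairpin's tags (interval 98.2 to 98.8) and, with 8224 tags, ranked 176 of 1164. Its levels were 196 and 164 CPM on day 1, 202 on day 2, 179 and 208 on day 3, and 210 and 236 on day 4, a mean of 199 ± 23.03 (SD, n = 7). Both day 4 values lay above both day 1 values, and day 3 of time course 1 lay between those of day 1. The log2 fold change for day 4 over day 1 was 0.49 ± 0.332, with edgeR's adjusted p = 0.662 and 0.439 with the block. The TMM factors of the day 4 and day 1 libraries differ by 0.17 on the log2 scale, and over library totals without TMM the log2 fold change of miR-421-3p was 0.31. Its 5p arm had 124 tags in all and 1.55 to 6.12 CPM (log2 fold change -0.29, edgeR's adjusted p = 0.954).

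The neighbouring miRNAs kept no fixed ratio across libraries. miR-374-5p tags numbered 0.132 and 0.485 times those of miR-421-3p on day 1, 2.11 times on day 2, 2.36 and 1.43 times on day 3, and 1.37 and 1.36 times on day 4. miR-421-3p was thus the less abundant of the pair in the 5 later libraries and the more abundant in both day 1 libraries. The log2 ratio averaged 0.45 on day 4 and -1.98 on day 1, a difference of 2.43. An exact two-sided permutation test, which ignored the time courses, gave p = 0.333. That is the smallest value 2 against 2 libraries can give, so the test cannot decide. The pair was also selected on its tags by day, so this ratio and its spread are not independent evidence. Over the genome, 88 pairs of miRNAs had same-strand hairpins within 10 kb and main arms of at least 1000 tags each. The standard deviation of the log2 ratio over the 7 libraries was 1.47 for miR-374-5p and miR-421-3p, whereas the median over all 88 pairs was 0.369 and the highest of the other pairs was 1.23. Members of other such pairs can share tags or a transcript to different degrees, so this is a description.

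**Figure D3:**
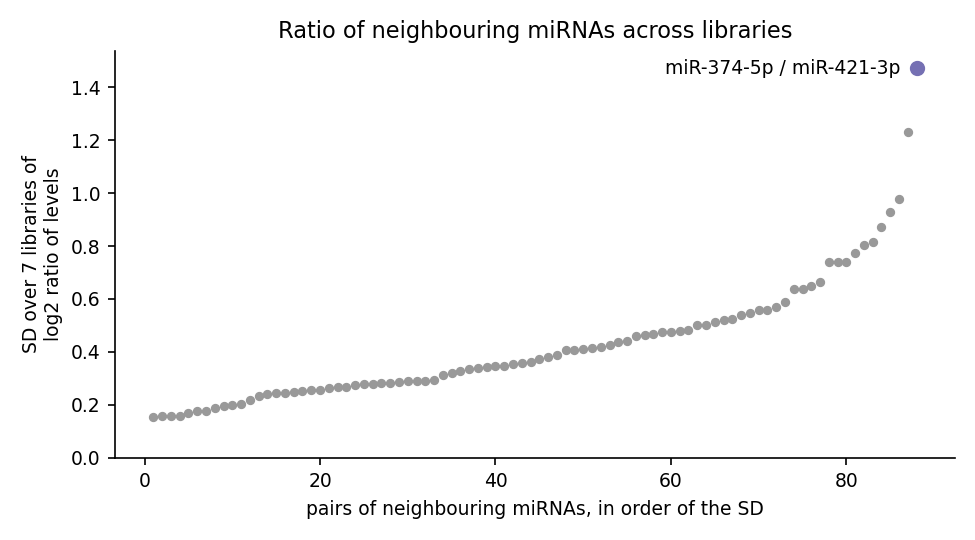
Standard deviation over the 7 libraries of the log2 ratio of levels (vertical, from 0) for each of the 88 pairs of neighbouring same-strand miRNAs, in rising order (horizontal). The pair of miR-374-5p and miR-421-3p, in purple, is at 1.47, above the next pair at 1.23 and the median of 0.369.

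By the spread of the same log2 ratio, no miRNA followed miR-374-5p closely. The nearest of 284 arms with at least 1000 tags were miR-210-5p (SD 1.02 over 7 libraries), miR-1933-5p (1.02) and miR-342-3p (1.11), and the median was 1.602. miR-421-3p had closer company, namely miR-30b-5p (SD 0.117), miR-183-5p (0.122) and miR-27b-5p (0.131), against a median of 0.414. These likenesses rest on 7 libraries that share their depth and normalization within a library, and they are given as a description.

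Tags of miR-374-5p differed in their ends between day 1 and later days. Nearly all started at base 22 of the hairpin, the RefSeq start (98.6% ± 0.314, SD, n = 7), and a start 1 base further in had 3 tags of 10471. Among tags with that start, the 22-nt form made up 27.7% and 46.3% on day 1, 63.8% on day 2, 63.2% and 62.4% on day 3, and 61.9% and 66.0% on day 4. The 5 later libraries lay close together, and both day 1 libraries lay below them. The Wilson interval on day 1 was 41.9 to 50.7 in time course 2 (225 of 486 tags) and 21.6 to 34.8 in time course 1 (48 of 173 tags).

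The 23-nt form, 1 base longer, held 18.3% to 24.7% on the later days, against 30.1% and 29.4% on day 1. Forms of 20 nt held 3.58% to 7.72% on the later days, against 10.4% and 9.05% on day 1. The 25-nt form held at most 0.504% on the later days, against 1.85% (9 tags) in time course 2 and 6.36% (11 tags) in time course 1 on day 1. The 22-nt form thus held less of the day 1 tags, and these other forms held more. In miR-421-3p the 23-nt form held 37.8% to 44.2% on the later days and 39.3% and 43.2% on day 1, with overlapping ranges. Its second form of 20 nt held 16.1% to 22.2% on the later days, against 15.3% and 12.9% on day 1.

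**Figure D4:**
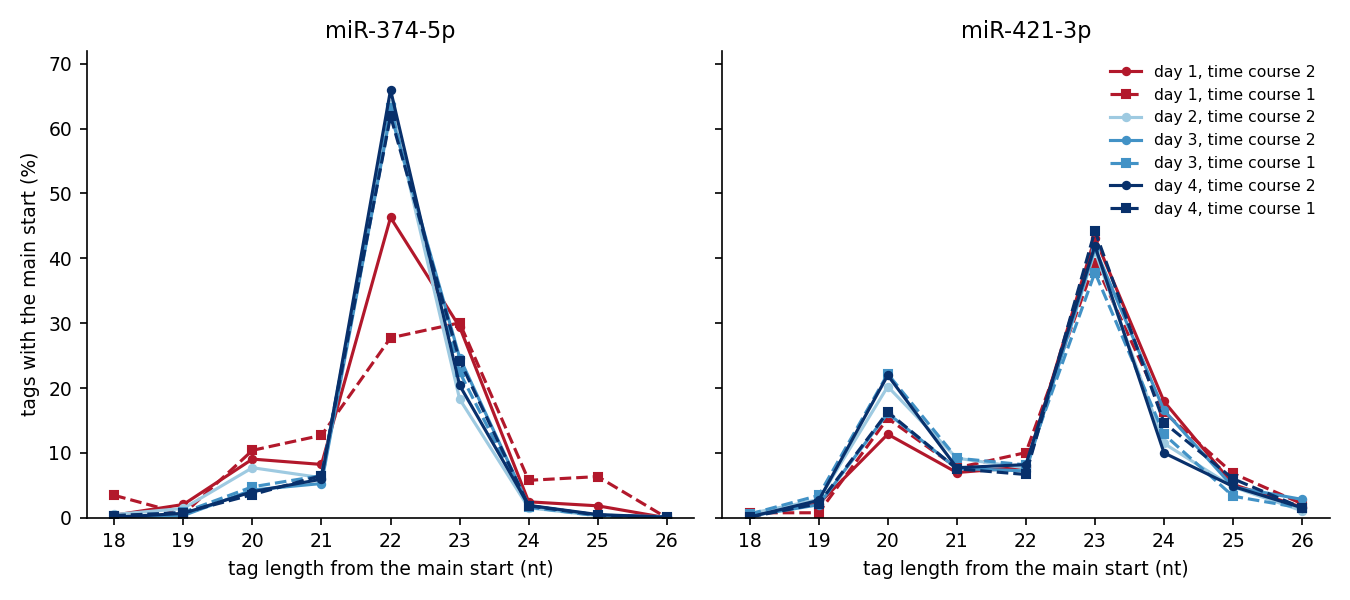
Share of tags with each length (percent of the arm's tags at its main start, vertical) against tag length in nt for miR-374-5p and miR-421-3p, 1 line per library, with later days in blues, day 1 in red, and circles or squares for time courses 2 and 1. At 22 nt miR-374-5p reaches 61.9% to 66.0% on the later days and 27.7% and 46.3% on day 1, whereas the lines of miR-421-3p lie together at 23 nt.

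The most frequent tags of the main arm of mir-374 and of both minor arms are given as deposited (DNA letters, seed in capitals), the minor ones because they start elsewhere than the RefSeq entries above:
miR-374-5p, 6079 tags: aTATAATAcaacctgctaagtg
miR-374-3p, 57 tags: cTTAGCAGgttgtattatcatt
miR-421-5p, 41 tags: gGCCTCATtaaatgtttgttga
The miR-374-5p tag is the RefSeq mature sequence. The 3p arm of mir-374 began most often at base 52 of the hairpin (69.8% of its tags), while RefSeq starts it at base 59, and 0 of 147.5 tags began within 1 base of that position. A start at base 51 held 19.3%. Its most frequent tag opens with the 19 bases of mmu-miR-374c-3p, the RefSeq entry of the opposite strand. The 5p arm of mir-421 began most often at base 8 (64 of 124 tags) and at base 11, the RefSeq start, in 29 of 124. The most frequent starts, base 52 of mir-374 and base 8 of mir-421, give seeds other than those of the RefSeq entries of these arms.

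miR-421-3p was less fixed at its start than miR-374-5p. Base 45 of the hairpin opened 89.6% ± 1.80 of its tags (SD, n = 7) and base 46 opened 7.04% ± 1.52, a form whose seed is moved by 1 base. The share of the later start ran from 5.28% to 9.20%. It was 5.28%, 7.01%, 5.72% and 5.72% in time course 2 on days 1 to 4, and 9.20%, 7.95% and 8.398% in time course 1 on days 1, 3 and 4, so the time courses did not overlap. This difference was not tested.

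Few tags were shared with the opposite strand. Tags that fit mir-374 and mir-374c equally well numbered 167, which is 1.56% of the tags that fit mir-374, and tags of mir-374c alone numbered 49. A start 2 bases into miR-374-5p coincides with the start of miR-374c-5p, and it held 1.13% ± 0.236 of miR-374-5p tags when shared tags were divided. The share was 0.375% with the shared tags left out and 1.87% with all of them given to mir-374. miR-374c-5p itself came to 125 tags, most of them from this division. Its log2 fold change was 1.92 ± 0.560 (edgeR's adjusted p = 0.334, and 0.0687 with the block). That value is not independent of miR-374-5p, because it rests largely on the shared tags. These numbered 2 and 8 on day 1, and 31 and 30 on day 4. Tags of mir-374c alone numbered 6 and 4 on day 1, and 1 and 11 on day 4. None of the mir-421 tags (0 of 8348) fitted another hairpin equally well.

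Internal base changes, that is bases other than the hairpin's before the last base of a tag, set the main arms apart. They were present in 24.7% ± 3.26 of miR-421-3p tags and in 3.86% ± 2.74 of miR-374-5p tags (SD, n = 7). Among 281 arms with at least 1000 unshared tags the median was 6.19%, and miR-421-3p ranked 4. In the RefSeq hairpin of mir-421 the 3 G bases at which most of these changes fell are in capitals:
mir-421 hairpin: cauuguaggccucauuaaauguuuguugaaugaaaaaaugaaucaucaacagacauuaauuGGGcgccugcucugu
Counted from 1 at the 5′ end of the most frequent miR-421-3p start, G19A was the leading change, with 1026 tags. It was present in 9.06% and 13.7% of the tags that covered it on day 1, 10.9% on day 2, 14.3% and 12.2% on day 3, and 13.6% and 15.7% on day 4, so the days overlapped. G18A had 224 tags and G20A 214.

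G20A was uneven between libraries. It was present in 1 of 860 tags (0.116%, interval 0.0205 to 0.656) in the day 1 library of time course 2, and in 2.52% to 5.82% in the other 6 libraries. Over all placed tags except those on several miRNAs, a base change was most frequent at position 18 (1.79%). It was at most 0.663% at any of positions 1 to 16. The study mapped tags from an anchor of 18 nt and accepted mismatches by their quality values. The part of that step in this profile was not tested. What part sequencing has in the G to A changes was not tested.

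**Figure D5:**
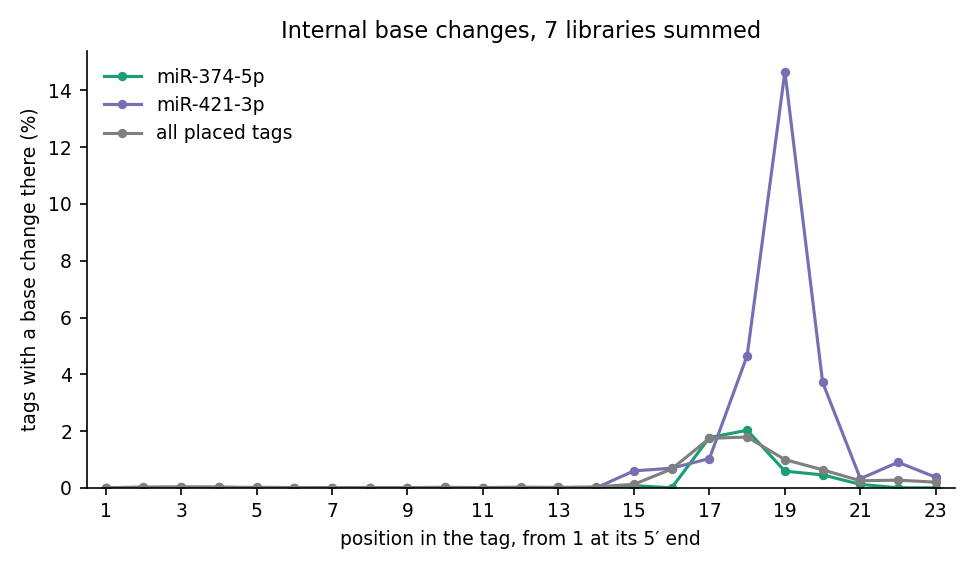
Share of tags with a base change (percent, vertical) at each position of the tag, from 1 at its 5′ end (horizontal), over the 7 libraries summed, for miR-374-5p, miR-421-3p and all placed tags. The line of all placed tags leaves out those on several miRNAs. miR-421-3p peaks at position 19 with 14.7%, whereas miR-374-5p and all placed tags peak at position 18 with 2.03% and 1.79%.

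On miR-374-5p the base changes were also spread unevenly over days. They were present in 0 of 176 tags (a limit of 1.70%, from 3 counts) and 3 of 496 tags (0.605%) on day 1, 6.52% on day 2, 7.26% and 4.29% on day 3, and 4.65% and 3.67% on day 4. The day 1 libraries lay below all others. In those 2 libraries, other arms with a tag count within 2 fold of miR-374-5p had a median of 5.61% (73 arms, 2 of them at 0) in time course 2 and 5.32% (88 arms, 11 at 0) in time course 1. Such arms had medians of 5.20% on day 2, 9.41% and 6.63% on day 3, and 4.63% and 8.40% on day 4. Over unshared tags, the share of miR-374-5p lay below that median on days 3 and 4 also, though by little (4.56%) on day 4 of time course 1. On day 2 it lay above the median (6.48%). Like arms at or below miR-374-5p numbered 11 of 88 and 2 of 73 on day 1, and 39 of 67 on day 2. They numbered 22 of 58 and 17 of 65 on day 3, and 34 of 70 and 7 of 65 on day 4. T17G (121 tags) and A18G (118 tags), counted from the 5′ end of the main start, were the most frequent changes and had 0 tags in both day 1 libraries. With only tags at the main start and without a base change, an alternative chosen after seeing the data, the log2 fold change of miR-374-5p was 2.63 (edgeR's adjusted p = 0.193).

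Time course 2 was set against time course 1 with day as a factor, over the 6 libraries of days 1, 3 and 4. Neither main arm passed the test, with a log2 difference of 0.39 ± 0.360 for miR-374-5p (edgeR's adjusted p = 0.533) and 0.04 ± 0.264 for miR-421-3p (adjusted p = 0.946). Of the 610 arms tested, 9.84% were called (37 higher and 23 lower in time course 2), and 0 of the 4 arms of the pair were among them. For miR-374-5p the time courses differed in opposite directions by day: 79.5 CPM in time course 2 against 25.8 in time course 1 on day 1, 297 against 424 on day 3, and 320 against 287 on day 4. For miR-421-3p the values of time course 2 were 164, 208 and 236, against 196, 179 and 210 in time course 1.

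Other X-linked miRNAs were counted as a background to the locus. Of 96 tested arms whose copies all lie on the X chromosome, 49 had a log2 fold change above 0 for day 4 over day 1, with a median of 0.01, against 384 of 726 and a median of 0.03 over all arms. edgeR called 0 of the 96 without the block. With the block 2 were higher and 1 lower (2.75% of all 726 arms were called in either direction): miR-2137-3p (log2 fold change 2.05, edgeR's adjusted p = 0.00309), miR-463-3p (1.89, adjusted p = 0.0412) and miR-98-3p (-1.71, adjusted p = 0.035), an arm of the let-7-related miR-98. Between the time courses, 12 of 84 X-linked arms were higher in time course 2 and 2 lower, where 6.07% and 3.77% of all 610 arms were. miR-742-3p, miR-743-3p, miR-880-3p and miR-881-5p, of the testis-enriched miRNA cluster of the X chromosome, had the lowest adjusted p values among the higher ones (edgeR's log2 differences of 1.56, 1.42, 1.30 and 2.48), and miR-652-3p (-2.19) and miR-98-5p (-0.91) were the lower ones. Without the day 3 library of time course 1, only 1 arm of all those tested was called higher and 2 lower.

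The labelled cell type was checked against its markers. Together, the muscle miRNAs miR-1, miR-133a, miR-208a and miR-499 held 8.43% to 10.4% of tags on the later days and 8.52% to 9.10% on day 1. Most of these tags were of miR-1 and miR-133a, so the pooled share says little about miR-499. Markers of blood cells, hepatocytes, neurons and fibroblasts held at most 0.00433% in any library, and endothelial miR-126 held 0.0611% to 0.0919% on the later days and 0.0482% to 0.0661% on day 1. Over the summed libraries miR-499 was as rare as such markers. It had fewer tags than those of blood cells (1289) or fibroblasts (907.5), and more than those of hepatocytes (123). The part of other cells in the levels of miR-374 was not tested. In such bulk RNA, fewer cells of a type and less RNA per cell cannot be told apart.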

How the data were processed

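Small RNA of HL-1 cells was enriched by electrophoresis, made into libraries with a SOLiD kit and read on that platform. The authors mapped tags to miRBase hairpins and to build mm9, and deposited per library a list of distinct sequences, each with its raw count, which is not normalized. Entries that hold no sequence were dropped (101 lines with 293 tags). Tags of at least 16 nt were placed anew on 1222 hairpins of GRCm38 (1174 from GENCODE vM21, 48 from RefSeq only), with up to 4 bases past an end. Of all tags 92.9% had 0 mismatches, 6.76% had 1, 0.00763% had 2 and 0.343% were not placed. Copies of a miRNA were merged, tags on several miRNAs (2.13%) were divided equally, and arms were set by the tag midpoint. A change at a tag's last base is not counted as internal.

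Counts were rounded, filtered with filterByExpr, scaled by TMM and tested with edgeR 4.0.16 (R 4.3.3), with 1 coefficient per day and the 7 libraries together, which left 3 residual degrees of freedom and a biological coefficient of variation of 0.374. The lone day 2 library is assumed to vary like the rest. DESeq2 1.42.0 was an alternative. The study describes an independent repeat of the time course without day 2. The labels give replicate numbers, and number 1 has no day 2 library, so the numbers were read as the time courses. Deviations of libraries with the same number correlated (0.396 for days 1 and 3, 0.401 for days 1 and 4, 0.387 for days 3 and 4, over 726 arms), so the numbers pair the libraries. Placement and fits were tested on simulated data. Python 3.11.15 and scipy 1.17.1 were used for shares.

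The text names each arm of both hairpins, hairpins that share their tags, the 3 arms of at least 1000 tags closest to each main arm by the SD of the log2 ratio, and up to 4 X-linked arms per direction. Members and lists were chosen with earlier results of these data known. Other tissues, genome-mapped tags, quantitative PCR and reporter assays are not analysed here.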

Additional observations from a re-analysis of the deposited data

Results flagged for a closer look

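In 2 of the 13 shares examined a single library lay far from the other 6 for the range of the group. Chance alone would do this for about 1 group in 20 if the libraries were equally precise. They were not: miR-374-5p had 176 and 496 tags on day 1 and 1418 to 2287 on later days. The pair was also selected on its counts by arm and day, so the rate does not apply to these 2 shares. The share of mir-374 tags on the 5p arm was 87.1% on day 1 of time course 1, while the next lowest was 95.4% on day 1 of time course 2. The share of miR-374-5p tags that start 2 bases in was 1.61% on day 1 of time course 2, from 8 tags of 496. Its Wilson interval, 0.819 to 3.15, covers the value of every other library.

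The minor arm miR-421-5p was lower on day 4 than on day 1 in time course 1 (log2 difference -0.91) and nearly unchanged in time course 2 (0.048). This contrast rests on 16 tags on day 4 and 14 on day 1 in time course 2, and on 10 tags on day 4 and 26 on day 1 in time course 1. It was not tested.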

How the results depend on the processing

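For day 4 over day 1, the log2 fold change of miR-374-5p stayed above 0 in all 14 alternatives run. With the replicate block, whose pairing is described above, it was 2.77 and passed the threshold, with 11 arms called higher and 9 lower. With DESeq2 it was 2.65 and passed, with 5 arms higher and 8 lower. Without the block 0 were called by edgeR in either direction. In that fit miR-374-5p did not pass with all 7 libraries (edgeR's adjusted p = 0.193), and the block was not used where a library was left out. Leaving out each library in turn, without the block, gave a log2 fold change of 2.00 to 3.77 for miR-374-5p. That of miR-421-3p ran from 0.31 to 0.51 over its 14 alternatives, and 0 of them passed. The block changed no other call on the 4 arms.

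Between the time courses, miR-374-5p turned to -0.12 with no day factor and ran from -0.25 to 0.90 when a library was left out, negative without either day 1 library. miR-421-3p ran from -0.025 to 0.13, negative without either day 3 library and without day 4 of time course 2. Against 37 higher and 23 lower, 13 were lower over library totals, 24 were higher and 14 lower with tags without a mismatch only, and 17 and 9 with no day factor. Leaving out a library gave 1 to 41 higher and 2 to 32 lower, with the lowest counts without day 3 of time course 1. The causes were not tested.

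Shares moved by more than their SD in few cases. Leaving shared tags out and giving them wholly to mir-374 made the main start of miR-374-5p 99.3% and 97.8%, and its start 2 bases in 0.375% and 1.87%. Without mismatches, the 20-nt and 23-nt forms of miR-421-3p held 21.8% and 33.4%. Low counts limit the minor arms and day 1 of miR-374.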
